A study of Mus musculus with 8 samples.

Results

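Ctgf, Cyr61, Thbs1, Axl and Ptpn14 are genes whose transcription is known to respond to YAP, the co-activator at the end of the Hippo pathway. They were followed by the 5 array probes, 1 per gene, that a supplementary table of the study pairs with their symbols, out of 42006 probes on the array. The copy of that table used here was shortened and names 1998 probes, all of them chosen in the study because they differed among these same 8 samples, so the fact that a named gene changed is not independent evidence, and counts of genes called are to be read against the share of all tested probes or of all named probes called in the same comparison.

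The samples were mouse HV embryonic stem (ES) cells of strain 129/Ola, in which Venus, a yellow fluorescent protein, was knocked into the locus of the endodermal homeobox gene Hex. All groups carried this allele and were grown with the cytokine LIF, under conditions that maintain self-renewal. Cells were sorted into 4 fractions by Venus (V) and by SSEA-1 (S), a surface carbohydrate of undifferentiated mouse ES cells, with V-S+ and V+S+ keeping the carbohydrate and V-S- and V+S- lacking it. Each fraction was taken once from each of 2 targeted clones, 5.1 and 16.1, which gave 8 samples, and the study relates V+S+ to early and V+S- to differentiated primitive endoderm, the extraembryonic lineage that forms beside the epiblast in the blastocyst. RNA of the sorted cells carried Cy3 and was co-hybridised with a Cy5-labelled reference pool from mouse cell lines, with the dyes the same way on every array. The 2 samples of a fraction are 2 clones of one reporter line. Errors of the fit without clone as a term thus measure the spread between clones and between single sorts. Errors of the fits with clone as a term leave out the shift that a clone's fractions share. These are bulk RNAs, in which a larger share of cells expressing a gene and more RNA per cell cannot be told apart.

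In the Hippo pathway the kinases Lats1 and Lats2 phosphorylate YAP and its relative TAZ (encoded by Wwtr1) and hold them in the cytoplasm. When the kinases are inactive, as in spread cells under tension, YAP and TAZ enter the nucleus and bind DNA through the TEAD factors. In the early mouse embryo this switch separates outer from inner cells, and Ctgf and Cyr61 are its most widely used transcriptional readouts. Ctgf (Ccn2) and Cyr61 (Ccn1) encode secreted CCN proteins of the matrix that bind integrins. Thbs1 encodes thrombospondin 1, a secreted matrix glycoprotein that can activate latent TGF-beta, Axl encodes a receptor tyrosine kinase of the TAM family that binds Gas6, and Ptpn14 encodes a FERM-domain tyrosine phosphatase that binds YAP and restrains it.

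In the RefSeq annotation of GRCm38.p6, Ctgf lies at chr10:24595442-24598683, Cyr61 at chr3:145646971-145649985, Thbs1 at chr2:118111876-118127133, Axl at chr7:25756500-25788924 and Ptpn14 at chr1:189728216-189876695. Promoter windows of 300 bases, from 250 before to 50 after a transcription start, were matched for 3 of the 5 genes, Cyr61, Axl and Ptpn14. They are shown because all 5 genes were higher in Venus-positive fractions and because TEAD factors are the DNA-binding partners of YAP. Each sequence is the stretch of the window outside the annotated gene, 5′ to 3′ on the gene's strand, and capitals mark the TEAD motif GGAATG or its reverse complement CATTCC. The stretches are 250 bases at chr3:145649986-145650235 (minus strand), 59 bases at chr7:25788925-25788983 (minus strand) and 198 bases at chr1:189728018-189728215 (plus strand).
Cyr61: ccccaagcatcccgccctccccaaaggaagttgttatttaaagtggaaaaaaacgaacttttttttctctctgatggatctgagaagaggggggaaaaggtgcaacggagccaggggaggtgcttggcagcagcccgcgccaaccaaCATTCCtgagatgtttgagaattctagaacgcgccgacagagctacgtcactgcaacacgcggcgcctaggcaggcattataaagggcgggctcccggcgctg
Axl: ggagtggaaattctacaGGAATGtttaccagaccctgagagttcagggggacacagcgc
Ptpn14: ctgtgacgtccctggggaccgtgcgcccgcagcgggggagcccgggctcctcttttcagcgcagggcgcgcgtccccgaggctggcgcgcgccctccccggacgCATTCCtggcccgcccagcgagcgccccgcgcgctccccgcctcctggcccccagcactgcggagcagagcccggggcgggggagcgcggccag
Each of the 3 windows held the motif once, beginning 103 bases before the window's start in Cyr61, 233 bases before it in Axl and 146 bases before it in Ptpn14. In Axl and Ptpn14 that start lies inside the annotated gene, so these 2 distances are not counted from the gene ends given above. Of all 32851 windows of that length, 14.7% held the motif on either strand. The CArG box, the motif of serum response factor, was in none of the 3 windows and in 1.63% of all windows. A match of letters is a description of the window and not a binding site.

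The arrays were of even quality. On each array between 28316 and 29671 probes stood well above background in the Cy3 channel, and no spot was saturated. A probe was tested if it was well above background in every scan of at least 1 fraction, which left 29484 probes, all 5 members among them. The members' probes were well above background in both channels in 16 of 16 scans, with Cy3 signals at least 32.1 times the local background. Values are log2 ratios of the sample to the reference pool, normalised within each array, so they can be compared between samples for one gene but not between genes. The cell type label could be checked only loosely. The 4 named pluripotency genes were Pou5f1, Nanog, Tdgf1 and Dppa3. Their mean log2 ratio was above the reference in all 8 samples, between 0.59 and 1.80. The mean of 2 named trophoblast genes was also above it in all 8 samples, between 1.17 and 1.63. A ratio above this mixed pool therefore does not single out ES cells, and it does not tell the fractions apart.

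Ctgf and Cyr61 stood higher in both Venus-positive fractions than in both Venus-negative fractions, by about 1 log2 unit. Their mean levels in V+S+ and V+S- were alike. The log2 ratio of Ctgf in clones 5.1 and 16.1 was -0.08 and 0.02 in V-S+, 0.78 and 1.24 in V+S+, -0.18 and 0.09 in V-S-, and 0.89 and 1.19 in V+S-. The 4 Venus-positive samples therefore lay above the 4 Venus-negative samples without overlap, while the ranges of V+S+ and V+S- overlapped, as did those of V-S+ and V-S-. The log2 ratio of Cyr61, in the same order of clones, was -2.03 and -1.99 in V-S+, -1.06 and -0.61 in V+S+, -2.31 and -1.94 in V-S-, and -0.85 and -0.73 in V+S-. Its fractions overlapped and separated in the same way as those of Ctgf. With 2 samples per fraction, and probes named because they differed among these samples, many probes can separate in this way. The share that did was not counted here or for the separations below, except for V-S- below V-S+.

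Thbs1 and Axl rose with Venus as well, but their highest level was in V+S-, above V+S+ in both clones. The log2 ratio of Thbs1 in clones 5.1 and 16.1 was -1.09 and -0.81 in V-S+, -0.29 and 0.29 in V+S+, -1.67 and -1.26 in V-S-, and 0.55 and 1.1 in V+S-. All 4 ranges were apart, with V-S- lowest, V-S+ next, then V+S+, and V+S- highest. The log2 ratio of Axl was -3.62 and -3.30 in V-S+, -3.10 and -2.45 in V+S+, -3.82 and -3.66 in V-S-, and -1.69 and -1.40 in V+S-. The order of its fractions was that of Thbs1, again with no overlap, but the V-S+ sample of clone 16.1 and the V+S+ sample of clone 5.1 lay only 0.20 apart, and the V-S- sample of clone 16.1 and the V-S+ sample of clone 5.1 only 0.04 apart, less than the 0.08 between the repeat scans of the former.

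Ptpn14 lay between these patterns. Its log2 ratio in clones 5.1 and 16.1 was -0.50 and -0.22 in V-S+, 0.39 and 0.95 in V+S+, -0.48 and -0.17 in V-S-, and 0.87 and 1.22 in V+S-. The 4 Venus-positive samples lay above all Venus-negative samples, V-S+ and V-S- overlapped almost entirely, and V+S- exceeded V+S+ within each clone although the ranges overlapped. In each of the 5 genes the sample of clone 16.1 was above that of clone 5.1 in all 4 fractions.

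**Figure D1:**
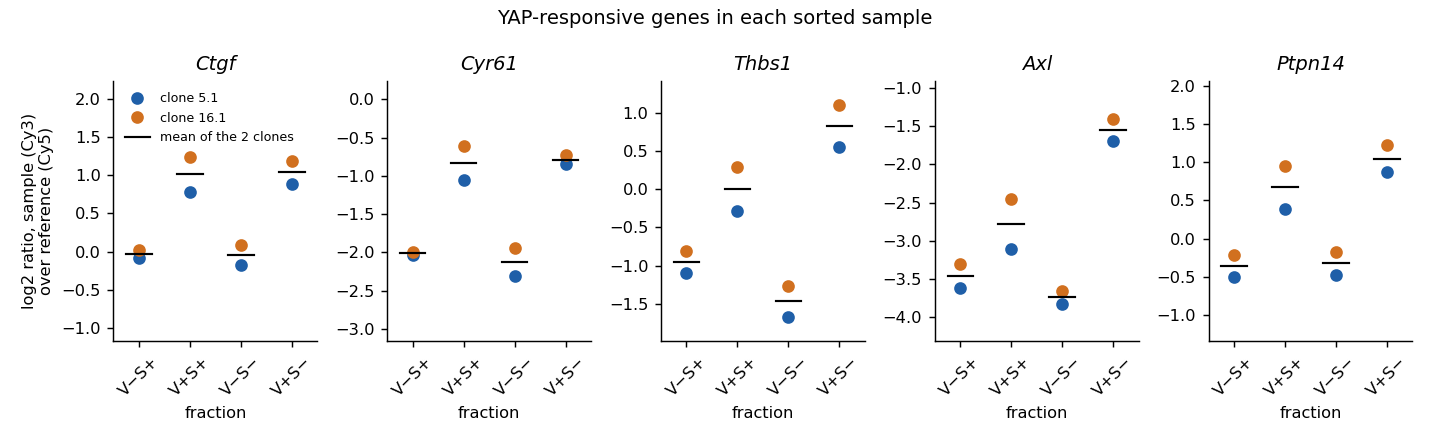
Log2 ratio of sample to reference (y axis, 1 panel per gene, all panels at one scale) in the 4 sorted fractions (x axis), with a point for each clone and a bar at the mean of the 2 clones. Ctgf and Cyr61 sat at a lower level in the Venus-negative and a higher level in the Venus-positive fractions, whereas Thbs1 and Axl took a further step up from V+S+ to V+S-.

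The overall difference among the 4 fractions was tested with a moderated F test (limma, Benjamini-Hochberg adjustment over all tested probes). All 5 genes passed a false discovery rate (FDR) of 0.05, with adjusted p between 0.0272 for Axl and 0.0378 for Ptpn14. Of all tested probes 7.38% passed, and of the named probes 45.6%. The call fell to 4 of 5 in the Cy3 channel alone, and to 0 of 5 with the scanner software's own signals, with the authors' log10 values, with an unmoderated test, and when any V-S+, V-S- or V+S- sample was left out. Since the named probes were selected by a test of this kind on these samples, the count describes the members and is not a result about them.

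Cells of the V+S- fraction, compared with the V-S+ fraction of Venus-negative, SSEA-1-positive ES cells, had more RNA of every one of the 5 genes. Axl was 3.77-fold higher (95% confidence interval 2.57 to 5.55, n = 2 clones) and Thbs1 was 3.42-fold higher (2.18 to 5.38). Ptpn14 was 2.66-fold higher (1.82 to 3.90), Cyr61 2.33-fold higher (1.73 to 3.13) and Ctgf 2.10-fold higher (1.54 to 2.87). A probe was called where its adjusted p was at most 0.05 and it differed by over 1.5-fold, and by that rule 5 of 5 members rose, with adjusted p (limma, Benjamini-Hochberg) between 0.0129 for Axl and 0.0209 for Ctgf. Of all tested probes 5.73% rose by the same rule, and of the named probes 48.1%. The median change of the 5 members was 1.41 on the log2 scale, against 0.01 for all tested probes. In size of rise, 17 of the 29484 probes exceeded Axl and 31 exceeded Thbs1, but 657 exceeded Ctgf. The call fell to 1 of 5 with the authors' log10 values, and to 0 of 5 with an unmoderated test or when the V-S+ sample of either clone or the V+S- sample of clone 16.1 was left out. With clone as a block in the fit, which removes the shift between clones from the error, it stood at 5 of 5 whichever sample was left out, where 8.87% of all tested probes and 54.9% of the named probes rose.

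Within SSEA-1-negative cells the Venus-positive fraction was again higher for all 5 genes. Thbs1 was 4.88-fold higher with Venus (95% confidence interval 3.10 to 7.67) and Axl 4.57-fold higher (3.11 to 6.72). Only 2 of the 29484 probes rose more than Thbs1 in this comparison, and 8 rose more than Axl. Ptpn14 was 2.60-fold higher (1.77 to 3.8), Cyr61 2.52-fold higher (1.87 to 3.39) and Ctgf 2.13-fold higher (1.56 to 2.90). By the call rule 5 of 5 members rose, with adjusted p (limma, Benjamini-Hochberg) between 0.0107 and 0.0190, against 6.30% of all tested probes and 53.1% of the named probes. The call fell to 3 of 5 with the authors' log10 values, to 1 of 5 with an unmoderated test, and to 0 of 5 when V-S- of either clone, or V+S- of clone 16.1, was left out. With the clone block it was 5 of 5 whichever sample was left out, where 8.96% of all tested probes and 56.0% of the named probes rose. This comparison shares its V+S- arrays with the one before it, so the 2 sets of values are not independent.

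Within SSEA-1-positive cells, the comparison that isolates the fraction which still bears the ES cell marker, all 5 genes stood higher with Venus than without it, in clone 5.1 and in clone 16.1. The change in clones 5.1 and 16.1 was 0.85 and 1.22 on the log2 scale for Ctgf, 0.96 and 1.38 for Cyr61, 0.79 and 1.1 for Thbs1, 0.52 and 0.86 for Axl, and 0.89 and 1.18 for Ptpn14. The change was larger in clone 16.1 for each gene. As folds, Cyr61 was 2.26-fold higher (95% confidence interval 1.68 to 3.04), Ctgf 2.06-fold (1.51 to 2.8), Ptpn14 2.04-fold (1.40 to 3.00), Thbs1 1.93-fold (1.22 to 3.03) and Axl 1.61-fold (1.1 to 2.37). In the fit without a block 0 of 5 passed, with adjusted p (limma, Benjamini-Hochberg) between 0.142 and 0.218, and of all tested probes 0% rose by the call rule. All 5 had an unadjusted p under 0.05, as did 18.7% of all tested probes, but 3 of 5 did when V+S+ of clone 16.1 or V-S+ of clone 5.1 was left out. With clone as a block 5 of 5 rose, with adjusted p (limma, Benjamini-Hochberg) of 0.00259 for Ctgf and Ptpn14, 0.00291 for Thbs1, 0.00296 for Cyr61 and 0.00993 for Axl. In that fit 3.87% of all tested probes and 25.5% of the named probes rose. Leaving out the V-S+ or the V+S+ sample of clone 16.1 took Axl below the threshold in the blocked fit and left the other 4 called.

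**Figure D2:**
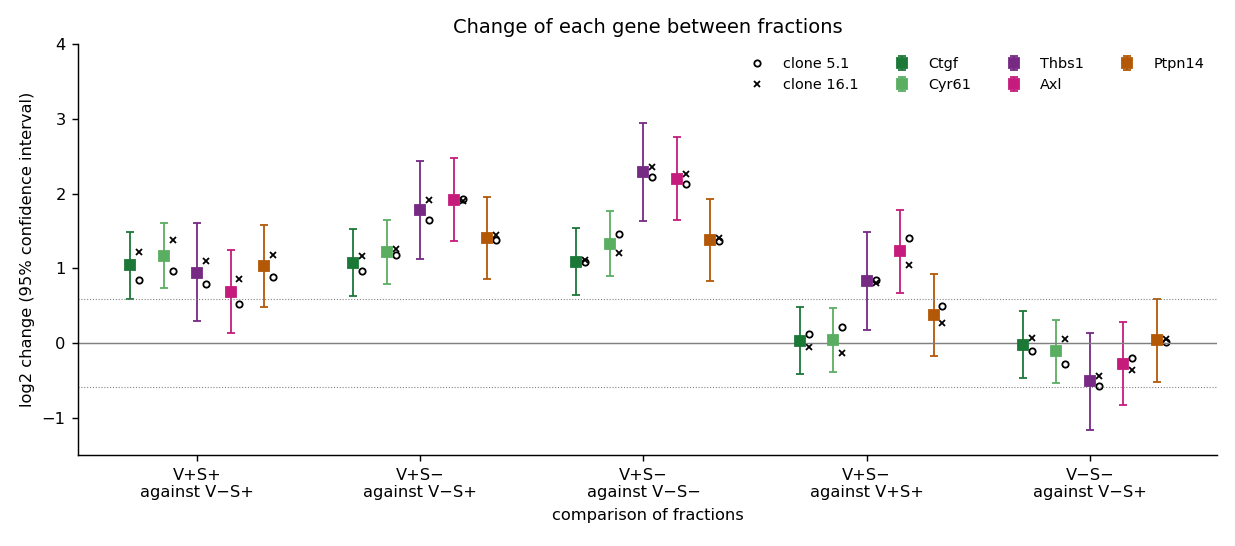
Log2 change of each gene (y axis) in 5 comparisons of fractions (x axis). Squares with bars are the change and its 95% confidence interval in the fit without a block, open circles and crosses are the changes within clones 5.1 and 16.1, and dotted lines mark 1.5-fold. The mean change of all 5 genes lay above 1.5-fold in the 3 comparisons of Venus-positive with Venus-negative cells, with Axl at 0.52 in clone 5.1 below that line in V+S+ against V-S+, whereas between V+S- and V+S+ Ctgf and Cyr61 stood at 0.03 and 0.04.

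Between the 2 Venus-positive fractions the genes differed in what they did. Ctgf in V+S- stood at 1.02-fold of its V+S+ level (95% confidence interval 0.751 to 1.39) and Cyr61 at 1.03-fold (0.766 to 1.39). A difference of more than 1.39-fold in either direction thus lay outside the intervals of both. Axl was 2.34-fold higher in V+S- (1.59 to 3.44) and Thbs1 1.78-fold higher (1.13 to 2.8), each in both clones. Ptpn14 stood at 1.30-fold, with an interval of 0.888 to 1.91 that includes no change. In the fit without a block 0 of 5 members and 0% of all probes passed, with adjusted p (limma, Benjamini-Hochberg) of 0.125 for Axl and 0.244 for Thbs1. With the clone block Axl and Thbs1 passed, 2 of 5, with adjusted p of 0.00755 and 0.00769 (limma, Benjamini-Hochberg), against 1.75% of all tested probes and 17.0% of the named probes. Ptpn14 had an adjusted p of 0.0337 in that fit (limma, Benjamini-Hochberg) but stayed under 1.5-fold. The blocked call was 0 of 5 without the V+S- sample of either clone, when no probe on the array passed, 1 of 5 when V+S+ of clone 5.1 was left out, and 0 of 5 when the block was fitted to the authors' log10 values.

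The effect of Venus in SSEA-1-negative cells (V+S- less V-S-) was also set against its effect in SSEA-1-positive cells (V+S+ less V-S+). This difference contains the V+S- and V+S+ arrays of the comparison just given, so the values are not independent of it. The difference of the effects was 1.5 on the log2 scale for Axl (SE 0.33), with 1.61 in clone 5.1 and 1.40 in clone 16.1. For Thbs1 it was 1.34 (SE 0.38), with 1.43 and 1.26 in the clones. It was 0.34 for Ptpn14 (95% confidence interval -0.43 to 1.12), 0.16 for Cyr61 (-0.45 to 0.77) and 0.05 for Ctgf (-0.58 to 0.68). Without a block 0 of 5 members and 0% of all probes passed, and both Axl and Thbs1 had an adjusted p of 0.571 (limma, Benjamini-Hochberg). With the clone block both passed with an adjusted p of 0.0357 (limma, Benjamini-Hochberg), 2 of 5 members against 0.828% of all tested probes and 8.16% of the named probes. That call was lost when any sample but V+S+ of clone 16.1 was left out, and when the block was fitted to the authors' log10 values. Of the 29484 probes 9 had a larger positive difference than Axl and 24 a larger one than Thbs1, while 12145 had a larger one than Ctgf.

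**Figure D3:**
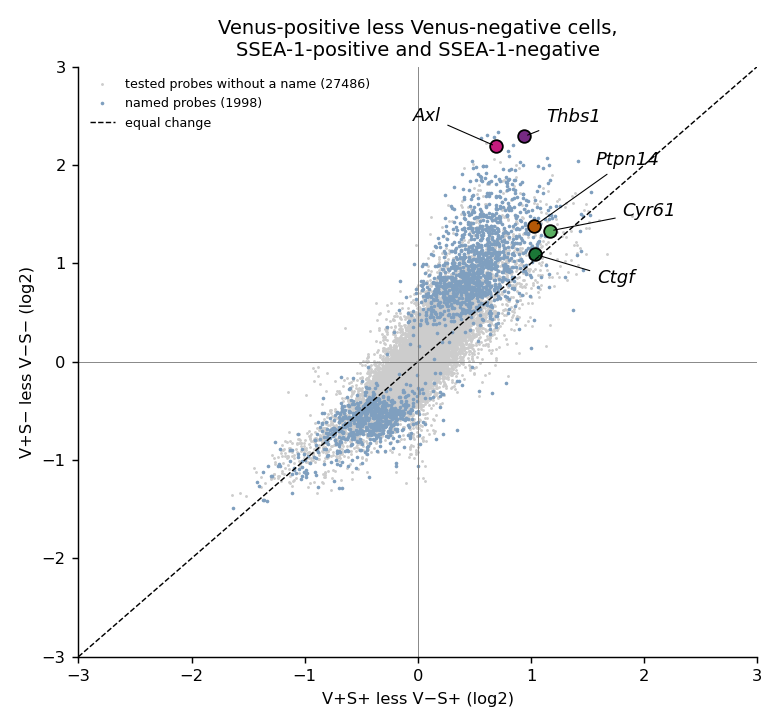
Log2 change with Venus in SSEA-1-positive cells (x axis, V+S+ less V-S+) and in SSEA-1-negative cells (y axis, V+S- less V-S-) for all 29484 tested probes, with named probes in blue, the 5 genes marked and a dashed line at equal change. Ctgf lay on the line and Cyr61 close to it, and Axl and Thbs1 lay far above it, at 2.19 and 2.29 on the y axis.

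Loss of SSEA-1 without Venus went with no called change in any of the genes. Between V-S- and V-S+ the log2 change was -0.02 for Ctgf, -0.11 for Cyr61, -0.51 for Thbs1, -0.28 for Axl and 0.04 for Ptpn14. Thbs1 was lower in V-S- in both clones, by 0.58 in clone 5.1 and 0.44 in clone 16.1, and Axl by 0.20 and 0.36. The 2 ranges were apart for both of these genes, which was also so for 16.5% of all tested probes in that direction. By size of change, 46 of the 29484 probes lay below Thbs1 and 296 below Axl. Neither fit called a member, with an adjusted p (limma, Benjamini-Hochberg) of 0.375 for Thbs1 and 0.590 for Axl with the block. No probe on the array, 0%, passed this comparison in either fit, and 2 of 5 members had an unadjusted p under 0.05 with the block, as did 8.38% of all tested probes, and 1 or 2 did when a sample was left out.

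Averaged over the fractions, the clones differed by less than 1.5-fold in each gene, although in V+S+ alone Axl differed by 0.65 on the log2 scale. In that average, clone 16.1 exceeded clone 5.1 by 0.45 on the log2 scale for Thbs1 (SE 0.06), 0.38 for Ptpn14 (SE 0.06), 0.35 for Axl (SE 0.08), 0.28 for Ctgf (SE 0.06) and 0.24 for Cyr61 (SE 0.08). None was called, against 1.39% of all tested probes, since all stayed under the fold threshold, but 4 of 5 passed an FDR of 0.05 alone, as 16.4% of all tested probes did in that direction, with Cyr61 at an adjusted p of 0.0579 (limma, Benjamini-Hochberg). All arrays of a clone lay on a single slide, so the 2 cannot be told apart.

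Among the upstream components of the pathway, 9 of 26 genes on a list of Hippo kinases, scaffolds and regulators could be named, and they did not move as one. In V+S- against V-S+, 3 rose by the call rule, Ptpn14 itself, Amotl1 by 1.25 (SE 0.20) and the kinase Lats1 by 0.78 (SE 0.19, both changes on the log2 scale), and 1 fell, where 1.28% of all tested probes and 11.6% of the named probes fell. These calls without a block, and those of the lists that follow, depended on single samples, as those of the members did: without V+S- of clone 16.1 or V-S+ of either clone, no probe on the array rose in V+S- against V-S+. In V+S- against V-S- none rose without V+S- of clone 16.1 or V-S- of either clone. The gene that fell was Nf2, which encodes merlin, an activator of the kinase cascade. Its log2 ratio in clones 5.1 and 16.1 was 0.63 and 0.70 in V-S+, 0.25 and -0.34 in V+S+, 0.76 and 0.68 in V-S-, and 0.03 and -0.39 in V+S-. All 4 Venus-positive samples lay below the Venus-negative samples, the reverse of the 5 members. The change of Nf2 was -0.85 in V+S- against V-S+ (adjusted p 0.0445, limma, Benjamini-Hochberg), and -0.71 in V+S+ against V-S+ (adjusted p 0.200, and 0.0211 with the clone block). Lats2, the second YAP kinase, changed by 0.71 in V+S- against V-S+ (adjusted p 0.0757, and 0.000702 with the clone block, limma with Benjamini-Hochberg adjustment). In V+S- against V-S-, 6 of the 9 rose and Nf2 fell, beside 1.49% of all tested probes that fell, and the largest rises were those of Ptpn14, Amotl1 (1.37) and Amotl2 (1.28). Amotl1 and Amotl2 are angiomotin-like scaffolds at cell junctions that bind YAP. With the clone block 6 of the 9 rose and Nf2 fell in V+S- against V-S+, and 4 rose and Nf2 fell in V+S+ against V-S+, where the fit without a block called none. Of all tested probes 3.02% and 1.75% fell in these blocked comparisons, and of the named probes 54.9% and 25.5% rose, and 48.1% and 53.1% rose without the block in V+S- against V-S+ and against V-S-. The median change of the 9 in V+S- against V-S+ was 0.78.

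Of the effectors and cofactors, 4 of 10 could be named, Wwtr1, Tead3, Vgll3 and Vgll4. Yap1, Tead1, Tead2 and Tead4 had no named probe and were not analysed here. Wwtr1, which encodes TAZ, rose by 0.97 in V+S- against V-S+ (log2 change, SE 0.18, adjusted p 0.0234, limma, Benjamini-Hochberg), and its log2 ratio in clones 5.1 and 16.1 went from -1.47 and -1.38 in V-S+ to -0.64 and -0.26 in V+S-. In V+S+ Wwtr1 stood between them, at -1.12 and -0.68, a change of 0.52 from V-S+ that was under 1.5-fold. Vgll3 and Vgll4, cofactors that bind TEAD proteins, rose by 1.25 and 0.67 in V+S- against V-S+. Tead3, one of the DNA-binding partners, changed by 0.88 there (adjusted p 0.0628, and 0.00197 with the clone block, limma with Benjamini-Hochberg adjustment) and rose by 1.13 against V-S-. By the call rule 3 of the 4 rose in V+S- against V-S+ and 4 of 4 in V+S- against V-S-, and none fell, beside 48.1% and 53.1% of all named probes that rose.

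A published signature of YAP and TAZ targets from several tumour types holds 22 genes, of which 13 could be named, 4 of the members among them. In V+S- against V-S+, 10 of the 13 rose and none fell, with a median change of 1.14 on the log2 scale. Without the 4 members, 6 of the other 9 rose, beside 48.1% of all named probes. All 9 rose with the clone block, when 54.9% of the named probes did. Among the genes called without the block the largest rises were those of Axl (1.92), Ptpn14 (1.41) and Ccdc80 (1.33, SE 0.28), a secreted matrix protein. Tgfb2, which encodes a TGF-beta ligand, changed by 1.52 and was called with the block only (adjusted p 0.0549, and 0.000332 with the block, limma with Benjamini-Hochberg adjustment). In V+S- against V-S-, 12 of the 13 rose, beside 53.1% of the named probes, and F3, which encodes tissue factor, rose by 1.71 (SE 0.16). Fer1l3 (Myof), which encodes the membrane repair protein myoferlin, stood at -0.03 in V+S+ against V-S+ and rose by 0.99 in V+S- against V-S+. Ankrd1, a cardiac ankyrin repeat protein and a common YAP readout, changed by 0.87 and by 1.01 in these 2 comparisons. The difference of the Venus effect between S- and S+ cells passed for none of the 13 without a block. With the clone block it passed for 4, Axl, Tgfb2 (1.32), Ccdc80 (1.26) and Fer1l3 (1.02), beside 0.828% of all tested probes and 8.16% of the named probes. Those calls needed nearly all of the samples, since at most 1 probe on the array passed when any sample but V+S+ of clone 16.1 was left out. With that block 9 of the 13 rose in V+S+ against V-S+, 5 of them not among the members, beside 25.5% of all named probes, and without the block none was called.

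**Figure D4:**
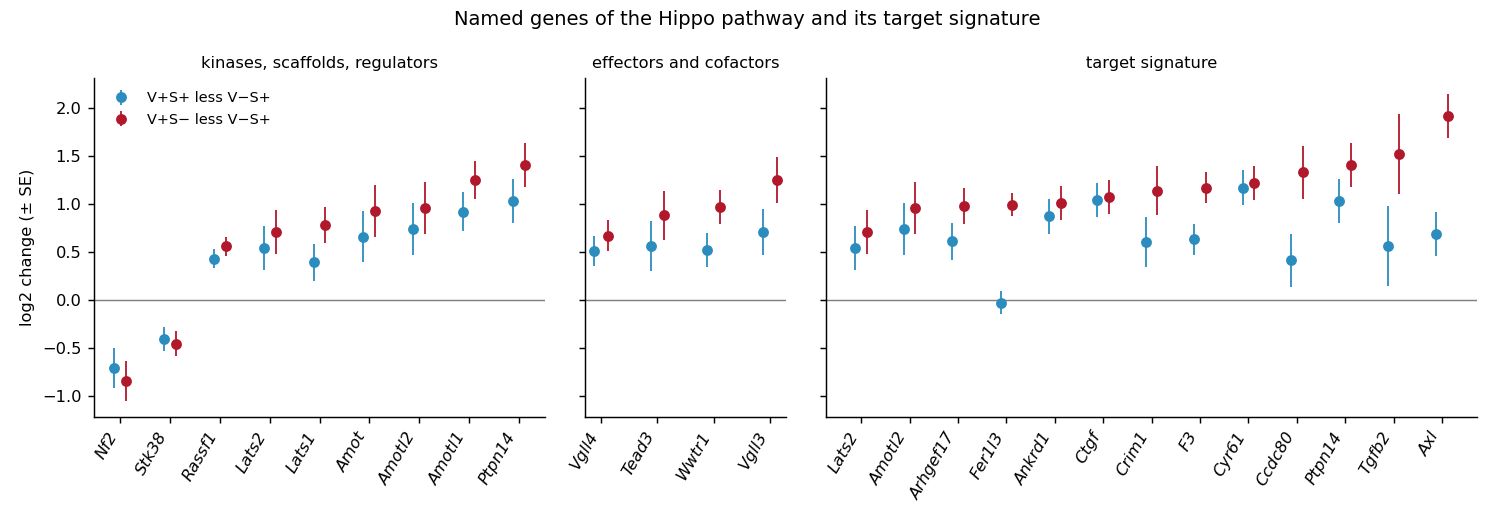
Log2 change (y axis, with SE bars) in V+S+ against V-S+ (blue) and V+S- against V-S+ (red) for the named genes of the Hippo regulators, the effectors and the target signature (x axis). Nf2 and Stk38 were the genes below 0 in both, and Fer1l3 was near 0 in V+S+ and at 0.99 in V+S-.

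The nearest relatives of the members could be followed in part. Wisp1 (Ccn4), the third named gene of the 6 in the CCN family, had log2 ratios in clones 5.1 and 16.1 of -2.37 and -2.10 in V-S+, -2.10 and -1.55 in V+S+, -2.64 and -2.59 in V-S-, and -1.20 and -1.04 in V+S-. Its V+S- samples thus exceeded its V+S+ samples without overlap, unlike those of Ctgf and Cyr61. Wisp1 rose by 1.11 in V+S- against V-S+ (log2 change, SE 0.19, adjusted p 0.0199, limma, Benjamini-Hochberg), and with the clone block its Venus effect differed between S- and S+ cells by 1.09 (adjusted p 0.0458, and 0.571 without the block). Like the other calls of that difference, it rested on nearly all of the samples. Pros1, which encodes protein S, a ligand of the TAM receptors, rose by 0.77 in V+S- against V-S+ (SE 0.09), and with Axl it was the only named gene of the 5 on the list of TAM receptors and ligands. Ptpn13, a second FERM-domain tyrosine phosphatase, rose by 1.34 in that comparison (SE 0.18) and had changes of 0.88 in V+S+ against V-S+ and 0.46 in V+S- against V+S+, close to the 1.03 and 0.38 of Ptpn14. Thbs1 was the only named thrombospondin of 5.

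Over the 8 samples the members correlated with each other at Pearson r between 0.87 and 0.99, as a description of 8 points that share clones, slides and a reference. Ctgf and Cyr61 had the highest r, 0.99, and Axl with Ctgf and Axl with Cyr61 the lowest, 0.87. Among the 1997 other named probes, 12 followed Ctgf more closely than Cyr61 did, and 892 followed it more closely than Axl did. The named probes most like each member were Stag2, Klf7 and Cgn for Ctgf (r 0.998, 0.997 and 0.996) and 2310007B03Rik, Cgn and Cldn6 for Cyr61 (0.998, 0.996 and 0.994). Cgn encodes cingulin and Cldn6 claudin 6, both of tight junctions. Those most like Thbs1 were B2m, Erbb2ip and Actn1 (0.998, 0.997 and 0.995), those most like Axl were Cdkn2b, Anxa5 and Itga11 (0.999, 0.998 and 0.998), and those most like Ptpn14 were Tgfa, Rgs17 and St14 (0.998 each).

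Other lists moved in the same samples, and their part in the members' changes was not tested. Immediate-early genes, which cell dissociation and sorting can induce and which share serum response factor with some YAP targets, were named for 6 of 16, Fos, Jun, Junb, Atf3, Zfp36 and Klf6. Their mean log2 ratio in clones 5.1 and 16.1 was -2.09 and -1.90 in V-S+, -1.44 and -1.0 in V+S+, -2.12 and -1.91 in V-S-, and -1.34 and -1.01 in V+S-, so that the Venus-positive samples lay above the Venus-negative samples without overlap, as for Ctgf and Cyr61. Between V+S- and V+S+ the 6 genes did not move as one, with changes from -0.18 for Zfp36 to 0.46 for Fos, none of them called. By the call rule 2 of the 6 rose in V+S- against V-S+, Jun by 1.23 and Fos by 0.84, beside 48.1% of all named probes. With the clone block 5 of the 6 rose in V+S+ against V-S+, the largest being Jun (1.06), Atf3 (1.00) and Klf6 (0.89), where 25.5% of the named probes rose and the fit without a block called none of the 6.

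Primitive endoderm markers were named for 6 of 14. Their mean log2 ratio in clones 5.1 and 16.1 was -1.51 and -1.35 in V-S+, -1.25 and -0.89 in V+S+, -1.47 and -1.46 in V-S-, and -0.29 and -0.29 in V+S-. All 6 rose in V+S- against V-S+, beside 48.1% of the named probes, the largest being Sox7 (1.77), Col4a1 (1.24) and Col4a2 (1.07), while in V+S+ against V-S+ their changes were 0.17 to 0.48 and none was called in either fit. In that comparison the 5 members changed by 0.69 to 1.17. Fibroblast markers were named for 2 of 8, Col1a2 and Postn, whose mean was -4.35 and -4.03 in V-S+, -4.03 and -3.38 in V+S+, -4.32 and -4.13 in V-S-, and -2.58 and -1.85 in V+S-. Both rose in V+S- against V-S+, Postn by 1.99 and Col1a2 by 1.95. In V+S- against V+S+ the changes were 1.51 for Postn, 1.46 for Col1a2 and 1.23 for Axl. The endoderm list ran from 0.54 to 1.37 there, with a median of 0.73 and Sox7 the largest. With the clone block, and not without it, Postn, Col1a2, Axl and 4 of the 6 endoderm genes were called. In that fit 1.75% of all tested probes and 17.0% of the named probes rose. As given above, blocked calls in this comparison depended on single samples. The reference pool holds embryo fibroblast RNA, so the low ratios of the fibroblast markers do not measure how many of their transcripts the sorted cells held.

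Pluripotency markers were named for 4 of 10 and moved the other way. Their mean log2 ratio was 1.80 and 1.73 in V-S+, 1.56 and 1.07 in V+S+, 1.59 and 1.67 in V-S-, and 0.78 and 0.59 in V+S-, and all 4 fell in V+S- against V-S+, the largest falls being those of Dppa3 (-1.75), Pou5f1 (-1.01) and Nanog (-0.96), where 1.28% of all tested probes and 11.6% of the named probes fell. In V+S+ against V-S+ Pou5f1 changed by 0.22, and Dppa3 and Nanog, at -1.37 and -0.72, fell with the clone block only, a fit in which 1.75% of all tested probes fell. The trophoblast list had 2 named genes of 6, which moved in opposite directions. The keratin gene Krt7 rose by 0.73 in V+S- against V-S+, and Tcfap2c (Tfap2c), which encodes the transcription factor AP-2 gamma, changed by -0.88 (adjusted p 0.0747, and 0.0075 with the clone block, limma with Benjamini-Hochberg adjustment). No gene of the neuroectoderm or mesoderm lists had a named probe.

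**Figure D5:**
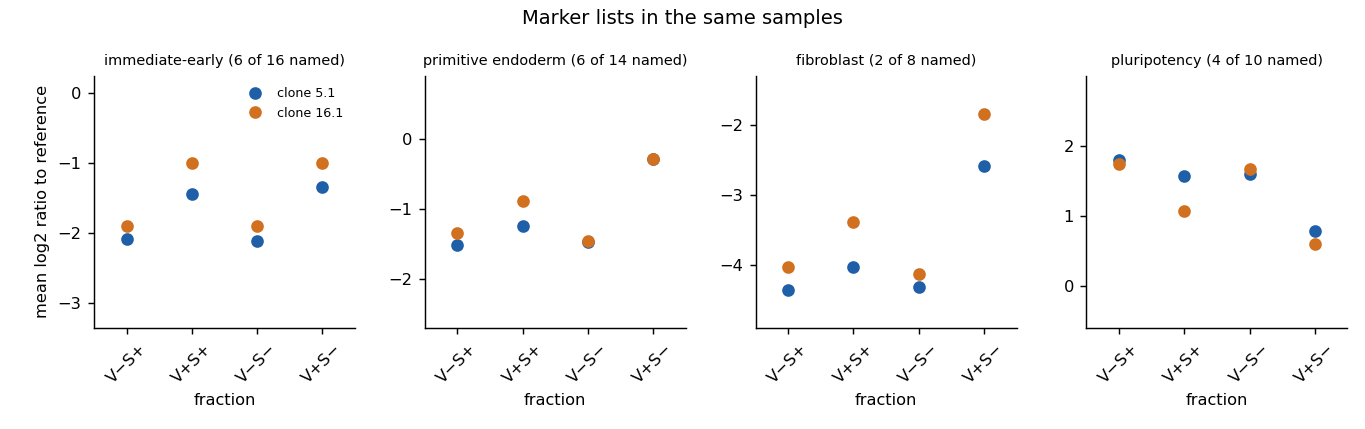
Mean log2 ratio to the reference (y axis, all panels at one scale) of the named genes of 4 marker lists in the 4 fractions (x axis), with a point for each clone. Immediate-early genes were higher in both Venus-positive fractions, primitive endoderm and fibroblast markers were highest in V+S-, and pluripotency markers were lowest there.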

How the data were processed

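RNA of 4 sorted fractions from 2 clones (8 samples) was hybridised to 8 two-colour Agilent arrays, each scanned 2 times, and a clone's 4 arrays lay on 1 slide. The authors deposited scanner output from Agilent Feature Extraction 9.5.1.1, whose columns hold spot intensity for both channels, and a table of log10 ratios. In each sample these log10 ratios correlated at 1, after rounding, with the ratios of the scanner software's processed signals. These 2 sets of values are therefore not independent. Here mean intensities were background-corrected (normexp, offset 50) against the median local background and loess-normalised within each scan with limma 3.58.1 in R 4.3.3. Control spots had no weight, outlier spots were left out, spots of a probe and then the 2 scans were averaged, and values were turned to log2 Cy3 over Cy5. The deposited log10 table, for 25164 probes, served as an alternative.

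All 8 samples entered 1 linear model with the fraction as its term, moderated (eBayes) and adjusted over 29484 probes by Benjamini-Hochberg. Calls required an FDR of 0.05 and more than 1.5-fold, the cut-offs in the methods of the study. With those cut-offs the study reported differing genes between V+S+ and V-S+ and between V+S- and V+S+. The fit without a block used here called none in these 2 comparisons. Clone as a block was an alternative. The clone number marks the same cell line in every fraction, and deviations of the 2 clones from the fraction means correlated at 0.59 to 0.81 between fractions, so the blocked value is given beside a result where it changes a call. The comparisons share arrays. Precision was limited by the number of arrays, 2 per fraction. The self-check of the model on simulated data recovered the mean size of the changes put in and called most, not all, of them. Its noise was independent between samples, and its clone shift was the same for every probe. It therefore cannot show how either fit behaves with the correlated clone deviations of these data.

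Probes were named only through the study's supplementary table, in a shortened copy, so a gene without a named probe here may be in the part not used. Genes outside the 5 members were named by a rule: from each list the 3 largest rises and falls past the threshold in a comparison, plus Yap1, Wwtr1, Tead1 to Tead4, Lats1, Lats2 and Nf2, and the 3 named probes most correlated with each member. Wisp1, Pros1, Ptpn13, Ankrd1, Tgfb2, Fer1l3, Tead3, Stk38, Zfp36 and Tcfap2c were named beyond it, or with values beyond it, after their values were seen. The members and lists were chosen with earlier results of these data known. Promoter windows are from RefSeq (GRCm38.p6).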

Additional observations from a re-analysis of the deposited data

Results flagged for a closer look

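Ctgf and Cyr61 moved in opposite directions in the 2 clones in the comparisons where they changed least, and these differences between clones were not tested, since each clone gave 1 sample per fraction. Between V+S- and V+S+ the log2 change of Ctgf was 0.12 in clone 5.1 and -0.05 in clone 16.1, and that of Cyr61 was 0.22 and -0.13. Between V-S- and V-S+ the change of Ctgf was -0.11 in clone 5.1 and 0.07 in clone 16.1, and that of Cyr61 was -0.28 and 0.05.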

How the results depend on the processing

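The overall difference among the fractions called 5 of 5 members, 4 in the Cy3 channel alone, and 0 with the scanner software's own processed signals, 0 with the authors' log10 values, 0 with an unmoderated test and 0 to 5 when 1 sample was left out (0 without any V-S+, V-S- or V+S- sample). V+S- against V-S+ called 5, but 1 with the authors' log10 values, 0 with an unmoderated test and 0 to 5 when 1 sample was left out. V+S- against V-S- called 5, but 3 with the authors' log10 values, 1 with an unmoderated test and 0 to 5 when 1 sample was left out. With clone as a replicate block, V+S+ against V-S+ called 5 in place of 0, and 4 when the block was fitted to the authors' log10 values, a setting chosen after seeing the data. The replicate block also called 2 in place of 0 for V+S- against V+S+ and for the difference of the Venus effect, and changed no other count of members. In that blocked fit, leaving out 1 sample, also added after seeing the data, gave 0 to 2 for V+S- against V+S+ and 0 to 2 for the difference of the Venus effect, and the block fitted to the authors' log10 values called 0 members for both. The FDR without a fold threshold called 4 members between clones in place of 0. The cause of these shifts was not tested.

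Changes near 0 turned sign. In the Cy3 channel alone V+S- against V+S+ was -0.06 for Ctgf and -0.08 for Cyr61, and V-S- against V-S+ was -0.01 for Ptpn14, which was -0.16 with median centring. Over the samples left out in turn, V+S- against V+S+ ran from -0.20 to 0.27 for Ctgf and from -0.18 to 0.27 for Cyr61. V-S- against V-S+ ran from -0.15 to 0.12 for Ctgf, -0.30 to 0.07 for Cyr61 and -0.12 to 0.19 for Ptpn14. The difference of the Venus effect ran from -0.18 to 0.29 for Ctgf and -0.07 to 0.39 for Cyr61. Median centring moved the median of all probes by 0.12 in V+S- against V-S-, by -0.13 in V-S- against V-S+ and by 0.18 in the difference of the Venus effect. With that centring 3744 probes rose and 139 fell in V+S- against V-S-, in place of 1858 and 440.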
